A study of Mus musculus with 9 samples.

Results

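The aortae of 2 Cre mouse lines, joined as 1 group, were compared with aortae of Wild Type mice. The Cre group held 6 of the 9 libraries of the series, 3 from Itga8-Cre mice and 3 from Myh11-Cre mice, and the Wild Type group held the other 3. Membership followed the genotype label alone, and all 9 libraries entered the fit. Each library came from 1 whole aorta of a C57BL/6J mouse. Itga8-Cre mice carry Itga8-CreERT2 and Myh11-Cre mice carry Myh11-CreERT2. CreERT2 is a Cre recombinase that stays inactive until tamoxifen is given. The sources used here give no age, sex or tamoxifen treatment for any group and no copy number or way of insertion for either line, and no floxed allele is named for any group. A value shared by the 2 lines is therefore a difference between mice that carry a CreERT2 and mice that carry none, at unknown exposure to tamoxifen.

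As background, Itga8 encodes the integrin subunit alpha 8 and Myh11 the heavy chain of smooth muscle myosin, and both genes are active in the smooth muscle cells of the aortic media. Insulin and insulin-like growth factors act through receptor tyrosine kinases whose adaptor proteins, Irs1 and Irs2, pass the signal on to the phosphoinositide and ERK kinase branches. The ERK branch switches on its own inhibitors, among them the Sprouty proteins, which act close to the receptor, and the dual-specificity phosphatases, which act on the kinases themselves.

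Of 55453 genes listed, 19412 had counts sufficient for the test. Total counts ran from 31419238 to 42497543 per library and did not separate the groups (exact two-sided permutation p = 0.571). The marker of smooth muscle Acta2 ranged from 171 to 1038 CPM (a gene's count relative to the scaled library total), that of endothelium Pecam1 from 145 to 185 CPM, that of skeletal muscle Acta1 from 4.57 to 3636 CPM, and that of brown fat Ucp1 from 1348 to 4957 CPM, so markers of tissue around the vessel varied widely between libraries. The Y-linked gene Ddx3y was at 113 to 146 CPM across all 9 libraries, for which no sex is given. Neither Itga8 nor Myh11 separated the 6 Cre from the 3 Wild Type libraries. Itga8 lay between 54.1 and 300 CPM in the Cre libraries (median 74.4) and at 475, 147 and 196 CPM in Wild Type, and Myh11 between 460 and 1114 CPM (median 697) against 1371, 1078 and 986 CPM. Their log2 fold changes were -0.92 (SE 0.65) and -0.57 (SE 0.27), and the Itga8 log2 fold change was -0.25 without Wild Type 1. The 3 Itga8-Cre libraries, at 54.1, 76.5 and 62.9 CPM, lay below every Wild Type library (-2.08, SE 0.59), and Myh11-Cre, at 72.4, 298 and 300.3 CPM, overlapped Wild Type (-0.29, SE 0.57). The difference between the lines was -1.79 (SE 0.58), with an unadjusted edgeR p of 0.0142 that did not pass adjustment over all genes. In whole aortae, fewer cells of a type cannot be told apart from less RNA per cell.

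With edgeR's quasi-likelihood test and Benjamini-Hochberg adjustment, 0 of 19412 genes passed an adjusted p of 0.05, and the smallest adjusted p was 0.0693. An unadjusted p under 0.05 was reached by 2213 genes, 11.4% of those tested, of which 972 were higher in Cre (5.01%) and 1241 lower (6.39%). DESeq2 called 85 of the 18066 genes it tested (0.470%), 25 higher (0.138%) and 60 lower (0.332%), and limma voom called 0, with 1984 at an unadjusted p under 0.05 (10.2%), 3.18% higher and 7.04% lower. In 846 genes (4.36%) all 6 Cre libraries lay on 1 side of all 3 Wild Type libraries. These were 374 genes with higher values in Cre (1.93%) and 472 with lower values (2.43%), with median log2 fold changes of 0.34 and -0.48. The share of higher genes among them was 44.2%, and it was 33.2% with DESeq2 size factors and 29.8% with upper-quartile factors. The median log2 fold change of all genes tested was 0.03, with 54.5% higher and 45.5% lower. Counts of higher and lower list members below are to be read against these shares. Values below are therefore described as higher or lower, with DESeq2 calls named as such.

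Irs2 and Impdh1, which shared the smallest adjusted p, are shown with the 250 bases before their RefSeq start sites (GRCm38.p6). Capitals mark every match, on either strand, to 1 of 5 motifs that were searched: the cAMP response element TGACGTCA, the E-box CACGTG, the FoxO motif GTAAACA, the GC box GGGCGG and the ETS motif CCGGAAGT. Each motif was counted on its own, also where it overlapped another.
Irs2, chr8:11008930-11009179, minus strand: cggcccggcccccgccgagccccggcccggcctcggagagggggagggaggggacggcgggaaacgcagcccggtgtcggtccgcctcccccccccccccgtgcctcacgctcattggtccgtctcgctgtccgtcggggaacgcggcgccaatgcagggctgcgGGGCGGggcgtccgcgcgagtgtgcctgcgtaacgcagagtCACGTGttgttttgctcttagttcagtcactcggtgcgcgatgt
Impdh1, chr6:29216365-29216614, minus strand: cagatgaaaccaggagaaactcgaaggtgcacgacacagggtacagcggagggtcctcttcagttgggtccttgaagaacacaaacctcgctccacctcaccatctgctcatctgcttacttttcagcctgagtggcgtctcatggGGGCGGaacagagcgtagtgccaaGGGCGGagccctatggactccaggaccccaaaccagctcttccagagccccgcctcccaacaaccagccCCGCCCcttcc
The Irs2 window held 1 E-box and 1 GC box, and the Impdh1 window 3 GC boxes. A second Impdh1 start in the table, with the window chr6:29212298-29212547, had 2 GC boxes before it. Among 16374 windows of the same length before tested genes, 7.63% held an E-box, 52.7% a GC box, 2.35% a cAMP response element, 2.33% a FoxO motif and 4.9% an ETS motif. A match of these letters is a description of the window and not a measured binding site.

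Irs2, the adaptor that couples insulin and cytokine receptors to their kinases, was lower in every Cre library than in any Wild Type library. It lay between 43.7 and 66 CPM in the 6 Cre aortae (median 49.2) and at 125, 103 and 143 CPM in Wild Type. The mean was 51.4 ± 8.4 CPM (SD, n = 6) against 124 ± 20.2 CPM (SD, n = 3), a 2.41-fold lower level, with a log2 fold change of -1.27 (SE 0.15), an edgeR adjusted p of 0.0693 and a DESeq2 adjusted p of 4.01e-09. The gene (ENSMUSG00000038894.7) spans chr8:10984681-11008458 on the minus strand, where 9530052E02Rik overlaps it on the opposite strand. Irs1, the adaptor of the same family that carries much of the growth factor signal, was at 57.4 to 84.9 CPM (median 73.3) in Cre and at 127, 92 and 111 CPM in Wild Type, also with no overlap. Its log2 fold change was -0.59 (SE 0.13), with a DESeq2 adjusted p of 0.0504. Irs2 and Irs1 were the only members of the 39 tested insulin and IGF signalling genes with an unadjusted p under 0.05. They made up 5.13% of the list, against 11.4% of all genes at that p. Over the whole list, both included, 18 of 39 were higher and 21 lower, with a median log2 fold change of -0.01, close to the 0.03 of all genes. Igfbp6, a binding protein of insulin-like growth factor II, came next in that list by p, with a log2 fold change of 0.73 (SE 0.34), with overlapping groups.

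The inhibitors that limit ERK signalling contained further genes of this kind. Spry4, a Sprouty protein that restrains signalling downstream of receptor tyrosine kinases, lay between 8.14 and 11.8 CPM (median 9.89) in Cre and at 30, 22.6 and 19.1 CPM in Wild Type. The highest Cre library stayed below the lowest Wild Type library. The log2 fold change was -1.26 (SE 0.16), with an edgeR adjusted p of 0.0862 and a DESeq2 adjusted p of 1.86e-08. Dusp4, a nuclear phosphatase of ERK and related kinases, lay between 17.2 and 26.6 CPM (median 23) against 83.9, 35.4 and 62.1 CPM. Its log2 fold change of -1.42 (SE 0.24) was the lowest of the list, and its Wild Type libraries were widely spread (DESeq2 adjusted p = 0.000209). Dusp10, a phosphatase that prefers the stress kinases p38 and JNK, lay at 20.6 to 26.6 CPM against 35.3, 30.9 and 30.7 CPM, giving a log2 fold change of -0.44 (SE 0.10).

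Over the whole list of ERK feedback inhibitors, 15 of 21 tested genes were lower and 6 higher, with a median log2 fold change of -0.20 against 0.03 for all genes. At an unadjusted p under 0.05, 5 were lower and 1 higher, against 6.39% and 5.01% of all genes, and DESeq2 called 2, against 0.470% of all genes. The following 3 were named after their values were seen. Dusp6, the cytoplasmic ERK phosphatase, was at 37.3 ± 3.53 CPM in Cre against 62.3 ± 22.8 CPM in Wild Type (log2 fold change -0.74, SE 0.20). Its Wild Type 2 library, at 36.2 CPM, lay within the Cre range. Spred2, a Sprouty-related inhibitor, was at 18.2 ± 1.08 against 21.8 ± 1.45 CPM with no overlap. Dusp14, another dual-specificity phosphatase, went the other way, at 3.48 ± 1.49 against 1.34 ± 0.168 CPM (log2 fold change 1.38, SE 0.41). Spry1 and Spry2, relatives of Spry4 also named after their values were seen, had log2 fold changes of 0.00 (SE 0.18) and -0.20 (SE 0.12), so the Sprouty genes did not have equal values. The summed CPM of the list ran from 546 to 661 in Cre and from 659 to 757 in Wild Type. The separate list of ERK-induced ETS factors and growth factor targets had a median of 0.06 (-0.02 without Myh11-Cre 2), with 10 of 18 higher. Its member Etv4, an ETS factor, was at 0.257 to 0.583 CPM in Cre against 0.203, 0.159 and 0.234 CPM.

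Impdh1, the isoform 1 of IMP dehydrogenase, which commits inosine monophosphate to guanine nucleotides, had the smallest p of all genes. It lay between 71.6 and 104 CPM (median 81.8) in the 6 Cre libraries and at 177, 197 and 249 CPM in Wild Type. The mean was 84.5 ± 11.9 CPM (SD, n = 6) against 208 ± 37 CPM (SD, n = 3), a 2.46-fold lower level, with a log2 fold change of -1.30 (SE 0.14), an edgeR adjusted p of 0.0693 and a DESeq2 adjusted p of 2.65e-11. The gene (ENSMUSG00000003500.13) spans chr6:29200434-29216364 on the minus strand. The rest of the purine pathway did not share this value. Of 26 tested genes of purine nucleotide synthesis, 19 were higher, with a median log2 fold change of 0.09. Ampd2, an AMP deaminase, was at 24.7 to 31 CPM (median 27.5) against 30.2, 43.4 and 41.6 CPM, giving a log2 fold change of -0.47 (SE 0.12). Gmpr, which returns guanosine monophosphate to inosine monophosphate, was at 40 to 90.4 CPM (median 66.9) against 26, 48.4 and 44.7 CPM, with 0.71 (SE 0.27). In both, the groups overlapped.

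**Figure D1:**
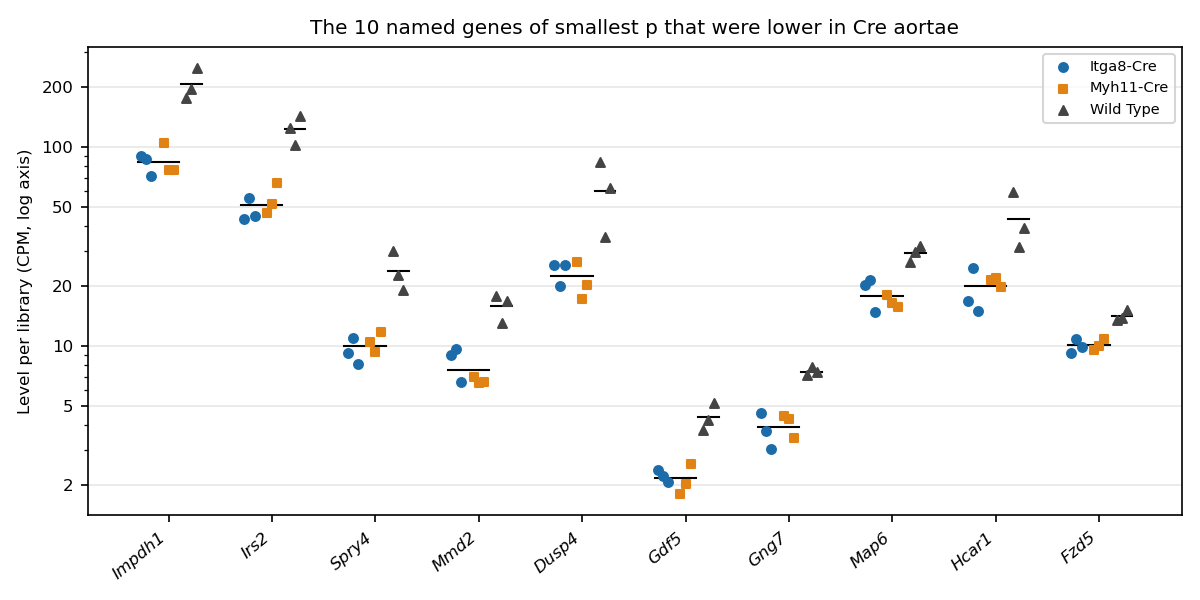
Level in each library (CPM, log axis) of the 10 named genes of smallest p among those lower in Cre. Circles are Itga8-Cre, squares Myh11-Cre and triangles Wild Type libraries, and bars give the mean of the 6 Cre and of the 3 Wild Type libraries. In each gene the 6 Cre libraries lie below the 3 Wild Type libraries, as for Irs2 at 43.7 to 66 CPM against 103 to 143 CPM.

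The other lower genes of smallest p belong to different pathways. Mmd2, a membrane protein of the progestin and adipoQ receptor family, was at 6.51 to 9.65 CPM (median 6.78) against 17.8, 13 and 16.9 CPM (log2 fold change -1.08, SE 0.17). Gdf5, a secreted ligand of the BMP family, was at 1.81 to 2.55 CPM against 3.77, 4.26 and 5.18 CPM, and Fzd5, a receptor of Wnt ligands, at 9.21 to 10.9 CPM against 13.4, 13.9 and 15.1 CPM. Their log2 fold changes were -1.02 (SE 0.17) and -0.49 (SE 0.09). Gng7, a gamma subunit of heterotrimeric G proteins, was at 3.04 to 4.63 CPM against 7.13, 7.83 and 7.37 CPM (-0.92, SE 0.16). Hcar1, the lactate receptor of fat cells, was at 15 to 24.7 CPM against 59.4, 31.6 and 39.2 CPM (-1.12, SE 0.20). Map6, a protein that stabilises the microtubules of neurons, was at 14.8 to 21.4 CPM against 26.6, 29.6 and 31.8 CPM (-0.72, SE 0.13). DESeq2 called all 6 genes, with adjusted p from 4.9e-06 for Mmd2 to 0.0015 for Fzd5. White fat cell markers, the cells in which Hcar1 is best known, summed to 9109 to 20753 CPM in Cre and 13414 to 16610 CPM in Wild Type. Neuron markers summed to 144 to 989 CPM in Cre against 627 to 1554 CPM. With their score as covariate the Map6 log2 fold change was -0.54.

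The 10 named genes of smallest p that were higher in Cre differed by 0.29 to 0.66 on the log2 scale, and the 10 lower ones by -0.49 to -1.42. Commd8, a subunit of the complex that sorts membrane cargo in endosomes, had the smallest p among them. It lay between 29.8 and 33.6 CPM (median 31.6) in Cre and at 25.3, 23.1 and 25.6 CPM in Wild Type, with a log2 fold change of 0.36 (SE 0.07) and a DESeq2 adjusted p of 0.0053. Tpbgl, a leucine-rich repeat membrane protein, was at 5.39 to 7.72 CPM against 4.69, 4.18 and 3.98 CPM (0.66, SE 0.15). Glrx, the glutaredoxin that reduces glutathionylated proteins, was at 7.9 to 12 CPM against 7.07, 6.45 and 6.48 CPM (0.58, SE 0.14). Zfp943, a zinc finger gene that several gene models overlap on the opposite strand, was at 21.6 to 24 CPM against 18.5, 17.2 and 17.8 CPM (0.34, SE 0.07). DESeq2 called these 4 genes.

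DESeq2 called none of the other 6 genes of smallest p that were higher. Of the mitochondrial proteins, Uqcc2, an assembly factor of respiratory complex III, was at 23.5 to 38.3 CPM (median 32.1) against 21.4, 20.9 and 20.2 CPM (log2 fold change 0.59, SE 0.14). Fis1, a receptor for fission of the outer mitochondrial membrane, was at 43.8 to 50.7 CPM against 38.8, 36.4 and 39.4 CPM (0.33, SE 0.07). Isyna1, which makes inositol phosphate from glucose 6-phosphate, was at 22.4 to 27.1 CPM against 18.3, 15.6 and 20.1 CPM (0.47, SE 0.10). Mettl23, a methyltransferase gene, Ccdc12 and Ubtd1 had values of 0.38 (SE 0.09), 0.29 (SE 0.07) and 0.35 (SE 0.08). The 6 genes were separate between the groups, as were the 4 above. DESeq2 adjusted p for these 6 genes ran from 0.0538 for Isyna1 to 0.0801 for Fis1.

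**Figure D2:**
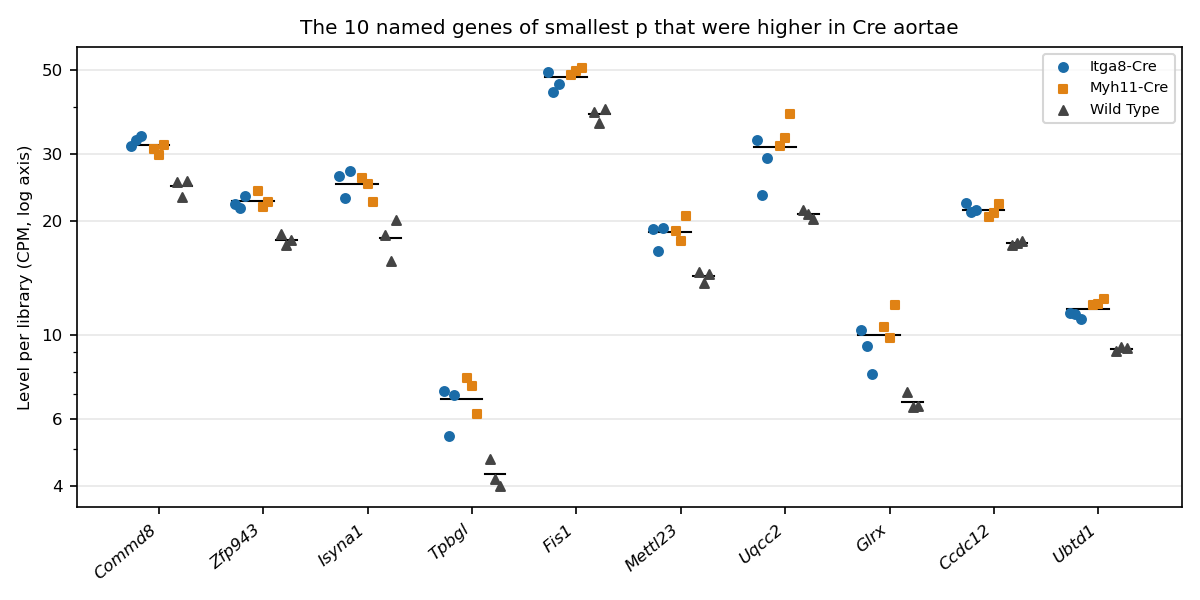
Level in each library (CPM, log axis) of the 10 named genes of smallest p among those higher in Cre, with symbols and bars as in the plot of lower genes. The 6 Cre libraries lie above the 3 Wild Type libraries in each gene by small margins, as for Commd8 at 29.8 to 33.6 CPM against 23.1 to 25.6 CPM.

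Each line was also set against Wild Type alone. Both comparisons use the same 3 Wild Type libraries, so a Wild Type library that stands apart moves both, and their likeness was not tested. Irs2 had a log2 fold change of -1.37 (SE 0.17) in Itga8-Cre and -1.17 (SE 0.17) in Myh11-Cre, Impdh1 of -1.32 (SE 0.18) and -1.27 (SE 0.18), and Spry4 of -1.34 (SE 0.19) and -1.18 (SE 0.19). Dusp4 stood at -1.35 (SE 0.30) and -1.50 (SE 0.30), and Irs1 at -0.73 (SE 0.14) and -0.46 (SE 0.14). Among the higher genes, Commd8 stood at 0.40 (SE 0.08) and 0.32 (SE 0.08), Tpbgl at 0.60 (SE 0.17) and 0.73 (SE 0.17), and Uqcc2 at 0.45 (SE 0.13) and 0.72 (SE 0.13). In either line alone edgeR called 0 genes (smallest adjusted p 0.494 in Itga8-Cre and 0.218 in Myh11-Cre), with 1316 (6.78%) and 3187 (16.4%) genes at an unadjusted p under 0.05. Of the tested genes 3.97% were higher and 2.81% lower at that p in Itga8-Cre, and 6.93% higher and 9.48% lower in Myh11-Cre.

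The difference between the 2 Cre lines sets their libraries directly against each other. The filter, the scaling and the spread behind its SE and p came from all 9 libraries, Wild Type included. EdgeR called 0 genes there (smallest adjusted p 0.521), with 1840 (9.48%) at an unadjusted p under 0.05, 7.64% higher and 1.83% lower in Itga8-Cre. DESeq2 called 19 of 17389 (0.109%), 13 higher (0.0748%) and 6 lower (0.0345%) in Itga8-Cre. For Impdh1 the log2 difference of Itga8-Cre minus Myh11-Cre was -0.05 (SE 0.18), for Irs2 -0.19 (SE 0.17), and for Spry4 -0.16 (SE 0.19). Each of these 3 differences was close to or below its SE, which does not show that the lines are alike.

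**Figure D3:**
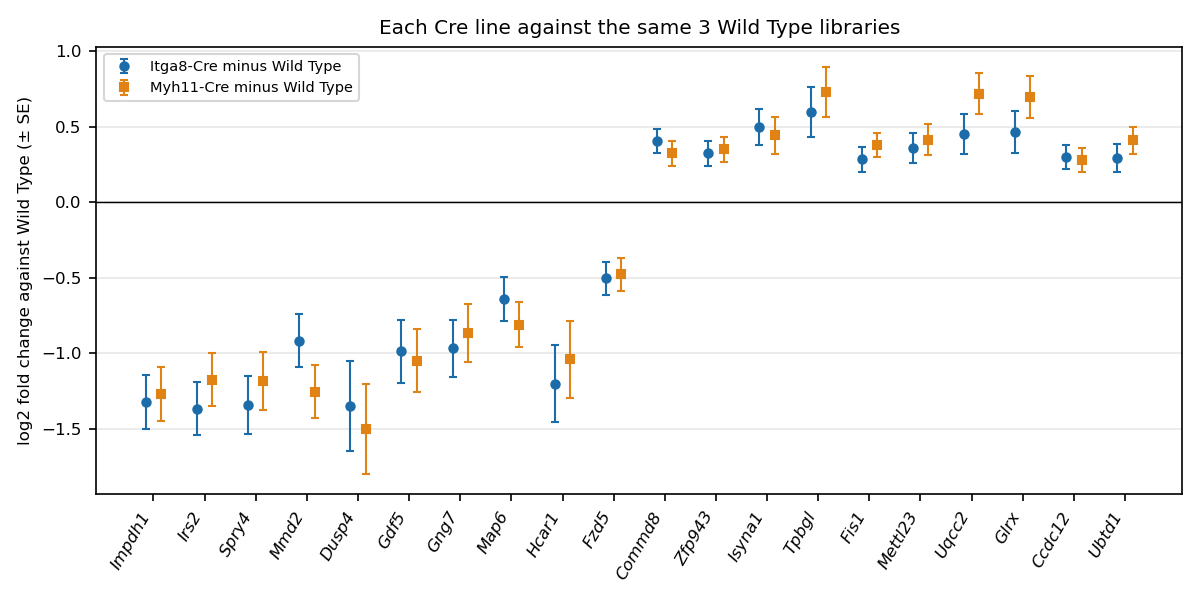
Log2 fold change against Wild Type (± SE) of the 20 genes of smallest p, with circles for Itga8-Cre and squares for Myh11-Cre, each from 3 libraries against the same 3 Wild Type libraries. The 2 lines lie on the same side of 0 for each gene, which the choice of the genes on the joined group favours, as for Irs2 at -1.37 and -1.17.

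Genes that respond within minutes to growth factors, calcium or cAMP were mostly lower. Of 28 tested immediate early genes, 18 were lower, with a median log2 fold change of -0.15 (-0.02 without Wild Type 1), and 7 had an unadjusted p under 0.05, all lower (25% of the list against 6.39% of all genes). Egr1, a zinc finger factor switched on by ERK and serum response factor, was at 11.4 to 18.5 CPM (median 14.5) in Cre and at 31.8, 18.2 and 39.9 CPM in Wild Type. Its groups met at Wild Type 2, and its log2 fold change was -0.99 (SE 0.22), with a DESeq2 adjusted p of 0.0273. Ccn1, a matrix-associated signalling protein, was at 15.8 to 38.2 CPM against 42, 37.8 and 64.2 CPM, and Fosl2, a subunit of the factor AP-1, at 35.6 to 51.2 CPM against 65.8, 58.1 and 49.6 CPM. Of 21 cAMP and CREB targets 16 were lower, with a median of -0.32, and 5 had an unadjusted p under 0.05, all lower, against 6.39% of all genes. After Irs2, which is also in that list, they included Fosb, another AP-1 subunit (log2 fold change -1.31, SE 0.40), and Nr4a1, an orphan nuclear receptor (-1.45, SE 0.58). Without Wild Type 3 the Fosb log2 fold change was -0.55 and the Nr4a1 log2 fold change -0.95. Both overlapped between the groups, and Nr4a1 ranged from 12.2 to 88 CPM in Cre. Nr4a1 had the lowest value of this list and of the immediate early list. The lists thus share members, and their counts are not independent.

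Nuclear receptors and clock genes gave smaller values. Of 11 genes of steroid hormone receptors and their cofactors 10 were lower, with a median of -0.09 (-0.21 without Myh11-Cre 3). Esr1, the estrogen receptor alpha, was at 36.4 to 61.8 CPM (median 50.8) in Cre and at 81.6, 66.4 and 73.8 CPM in Wild Type, with no overlap and a log2 fold change of -0.57 (SE 0.18). The summed CPM of the 11 genes was 601 to 686 in Cre and 687 to 703 in Wild Type. Circadian clock genes had a median of 0.03 (-0.06 without Myh11-Cre 2), with Per2 and Per3, repressors of the clock, at -0.41 (SE 0.17) and -0.35 (SE 0.15). The Per3 log2 fold change was -0.23 without Wild Type 2. Glucocorticoid targets had a median of 0.19, with 10 of 18 higher. That median was 0.10 without Itga8-Cre 1, 0.30 without Itga8-Cre 2 and 0.03 once the fit held a brown fat score. FoxO targets, which insulin signalling holds down, had a median of 0.14, with 17 of 25 higher. That median was 0.04 without Itga8-Cre 1 and Myh11-Cre 1, left out with the data in view. At an unadjusted edgeR p under 0.05, 3 were higher and 2 lower, against 5.01% and 6.39% of all genes. Irs2, itself in that list and lower, was the 1 member that DESeq2 called, against 0.470% of all genes. Of the FoxO targets, Sesn1, a stress-induced inhibitor of mTOR signalling that is also a p53 target, was at 44.9 to 59.2 CPM (median 51.5) against 37, 43 and 39.5 CPM, with no overlap (0.37, SE 0.10).

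Several named genes of the vessel wall were lower in Cre. Myh10, the heavy chain of non-muscle myosin IIB, lay between 79.4 and 118 CPM (median 104) against 168, 168 and 154 CPM, giving a log2 fold change of -0.68 (SE 0.13) and a DESeq2 adjusted p of 0.00178. Mcam, an adhesion protein of mural and endothelial cells, was at 83.9 to 132 CPM (median 102) against 180, 149 and 160 CPM (-0.62, SE 0.14). Notch3, the Notch receptor of smooth muscle and pericytes, was at 80.6 to 91.2 CPM (median 82.7) against 98.3, 110 and 110 CPM (-0.33, SE 0.08). DESeq2 called both, with adjusted p of 0.0078 and 0.00479. Hey2, a repressor that Notch induces, was at 5.87 to 9.35 CPM against 11.4, 11.7 and 11.2 CPM (-0.55, SE 0.14), while its relative Hey1 was at 5.69 to 9.2 CPM against 5.48, 5.71 and 4.87 CPM (0.40, SE 0.17).

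Most of the wider lists of the wall lay closer to 0. The modulated smooth muscle list, from which Myh10 comes, leaned the other way, with 14 of 21 higher and 7 lower. Its median was 0.28 (0.17 without Myh11-Cre 2 and 0.39 without Myh11-Cre 1). Of 12 pericyte and mural markers 6 were lower, 4 with an unadjusted p under 0.05 (against 6.39% of all genes), and the median was -0.04 (0.08 without Wild Type 1). These 4 were Notch3, Mcam, Rgs4, a regulator of G protein signalling (-0.78, SE 0.18, with Itga8-Cre 2 at 31.6 CPM inside the Wild Type range), and, named after its values were seen, the proteoglycan Cspg4 (-0.47, SE 0.13). Of 36 smooth muscle contractile genes 25 were lower, with a median of -0.24 that became 0.03 without Wild Type 1. Ppp1r14a, an inhibitor of myosin phosphatase, was at 5.39 to 8.78 CPM against 13.5, 10.3 and 9.26 CPM, and Smtn, the actin-binding smoothelin, at 102 to 167 CPM against 187, 226 and 179 CPM, both with no overlap (-0.63, SE 0.18, and -0.51, SE 0.17). The summed CPM of the contractile genes was 4317 to 11340 in Cre and 6705 to 9791 in Wild Type. Of 24 endothelial markers 16 were lower, with a median of -0.09 (-0.04 without Wild Type 1), and Kdr, the main receptor of vascular endothelial growth factor, had -0.22 (SE 0.09). Matrix genes had a median of -0.04 (0.15 without Wild Type 1), with the laminin chains Lama5 and Lama4 at -0.37 (SE 0.13) and -0.32 (SE 0.13) and no overlap. The Lama4 log2 fold change was -0.21 without Wild Type 1.

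Stress and damage lists leaned to higher values, where 54.5% of all genes tested were higher. Of 26 p53 targets 21 were higher, with a median of 0.31 (0.16 without Wild Type 2), but among the 6 with an unadjusted p under 0.05 only 2 were higher and 4 lower, against 5.01% and 6.39% of all genes. Zmat3, an RNA-binding protein induced by p53, was at 18 to 23.2 CPM (median 20.2) against 23.4, 30.6 and 24.7 CPM, and Tnfrsf10b, a death receptor, at 3.82 to 4.43 CPM against 6.32, 5.13 and 5.26 CPM (-0.38, SE 0.11, and -0.42, SE 0.13). Of 25 endoplasmic reticulum stress genes 17 were higher, with a median of 0.06 (0.00 without Wild Type 2), and 5 had an unadjusted p under 0.05, all higher (20% against 5.01% of all genes). Herpud1, which helps to degrade misfolded proteins, was at 112 to 177 CPM (median 155) against 84.3, 104 and 99.8 CPM (0.62, SE 0.16). Manf, a secreted stress-induced factor, and Atf6, a stress sensor of the membrane, were at 0.34 (SE 0.11) and 0.28 (SE 0.09), also with no overlap.

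In the hypoxia list 16 of 22 genes were higher, with a median of 0.33, and 4 higher and 1 lower had an unadjusted p under 0.05, against 5.01% and 6.39% of all genes. The hypoxia median was 0.17 without Itga8-Cre 1 and Myh11-Cre 1, left out with the data in view. With the brown fat score as covariate it was 0.23. Egln3, a prolyl hydroxylase that marks the hypoxia factor for removal, was at 8.69 to 18.3 CPM (median 16) against 10.5, 7.3 and 6.61 CPM (0.90, SE 0.24), with Itga8-Cre 2 the one Cre library inside the Wild Type range. Of 30 interferon response genes 21 were higher, with a median of 0.11 that was 0.02 without Itga8-Cre 2 and 0.19 without Wild Type 3. Oas1a, a sensor of double-stranded RNA, was at 2.13 to 2.99 CPM against 1.85, 1.72 and 1.61 CPM, with no overlap (0.60, SE 0.18). Of 20 cytosolic heat shock genes 15 were higher, with a median of 0.13, and Hspa4l, a relative of Hsp70, was at 54.9 to 75.9 CPM against 45.9, 49.2 and 49.8 CPM (0.42, SE 0.11). DESeq2 called 0 members of the p53, endoplasmic reticulum stress, hypoxia, interferon and heat shock lists, against 0.470% of all genes. In lists this short a count of 0 is not informative at that share.

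**Figure D4:**
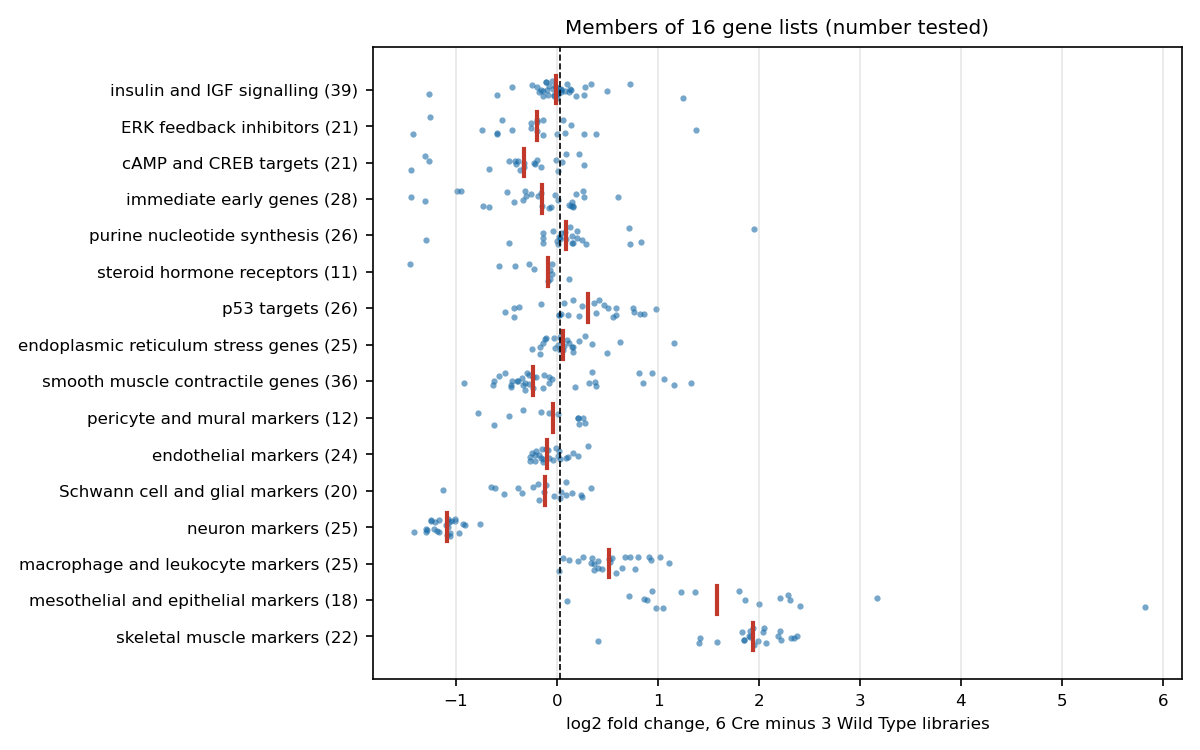
Log2 fold change, 6 Cre minus 3 Wild Type libraries, of each tested member of 16 gene lists, with the number tested in brackets. Points are genes, red bars list medians and the dashed line the median of all genes tested (0.03). Neuron markers lie on the left (median -1.09), mesothelial and epithelial and skeletal muscle markers on the right (1.58 and 1.94), and the signalling lists lie closer to 0.

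Markers of cells outside the smooth muscle layer had the largest list medians. All 25 neuron markers were lower in Cre, with a median of -1.09, and 14 had an unadjusted p under 0.05, against 6.39% of all genes. The groups were separate in 0 of them, against 2.43% of all genes, a share at which a count of 0 in 25 genes is not informative. Syt1, a calcium sensor of synaptic vesicles, was at 10.7 to 71.8 CPM (median 40.8) against 50.7, 108 and 116 CPM (log2 fold change -1.22, SE 0.49), and Nefm, a neurofilament subunit, at 1.15 to 10.9 CPM against 5.56, 15.2 and 16.4 CPM (-1.42, SE 0.58). The median of the neuron list was -0.68 in Itga8-Cre and -1.77 in Myh11-Cre, against the same Wild Type libraries, and the difference between the lines was not tested for the list. Schwann cell and glial markers had a median of -0.12 (-0.03 without Wild Type 1), with 12 of 20 lower. Among them, Ngfr, the low-affinity nerve growth factor receptor that neurons also carry, was at -1.13 (SE 0.44) and Ncam1, an adhesion protein that nerve and muscle cells also carry, at -0.65 (SE 0.20).

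All 18 mesothelial and epithelial markers were higher in Cre, with a median of 1.58. Of these 15 had an unadjusted p under 0.05 (against 5.01% of all genes), 6 were separate between the groups (against 1.93%) and DESeq2 called 4 (against 0.138%). Msln, the surface protein mesothelin, was at 12.5 to 42.9 CPM (median 20.6) against 9.59, 5.24 and 5.15 CPM (1.86, SE 0.45, DESeq2 adjusted p = 0.00767). The keratins Krt19 and Krt7 were at 6.03 to 30 CPM and 3.4 to 17 CPM, against at most 3.85 and 2.75 CPM in Wild Type (2.31, SE 0.56, and 2.00, SE 0.55). Krt5, a keratin of basal epithelium named after its values were seen, reached 59.8 CPM in Myh11-Cre 2 and was at 0.0858 CPM in Itga8-Cre 1. The mean log2 CPM of the list was 2.49 to 4.71 in Cre and 1.51 to 2.37 in Wild Type, whereas the summed CPM overlapped, at 404 to 1059 against 389 to 562 CPM.

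Blood cell and muscle markers were higher with wide spread. All 25 macrophage and leukocyte markers were higher, with a median of 0.52, and 6 had an unadjusted p under 0.05, against 5.01% of all genes. Cd68, a lysosomal protein of macrophages, was at 7.14 to 17.5 CPM (median 12.2) against 6.98, 6.03 and 6.58 CPM (0.92, SE 0.33), and Lgals3, a galectin of macrophages that stands in the modulated smooth muscle list, at 12.8 to 48 CPM against 10.5, 8.7 and 10.6 CPM (1.41, SE 0.41). All 28 T and B lymphocyte markers and all 28 cell cycle genes were higher as well, with medians of 0.48 and 0.66. At an unadjusted p under 0.05 there were 1 and 0 members, against 5.01% of all genes. The lymphocyte median was 0.32 without Wild Type 2, and the cell cycle median 0.42 without Itga8-Cre 3. The summed CPM of the cell cycle genes was 844, 644 and 435 in Itga8-Cre 3, Myh11-Cre 1 and Myh11-Cre 2, where immature thymocyte genes summed to 1646, 1155 and 905 CPM. In Itga8-Cre 1 and Myh11-Cre 3 the cell cycle sums were 231 and 232 CPM, below the 258 to 300.4 CPM of Wild Type, and thymocyte sums were 341 and 452 CPM. Immature thymocyte genes had a median of 0.73, with 14 of 15 higher, which was 0.33 without Itga8-Cre 3, and their part in the cell cycle values was not tested. Skeletal muscle markers had a median of 1.94, with 22 of 22 higher and 0 at an unadjusted p under 0.05, against 5.01% of all genes. Their summed CPM ran from 320 to 22289 in Cre and from 1374 to 2729 in Wild Type. The skeletal muscle median was 0.22 with the replicate number as a block. It was -0.93 when Itga8-Cre 3 and both Myh11-Cre 2 and 3 were left out, a choice made with the data in view.

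**Figure D5:**
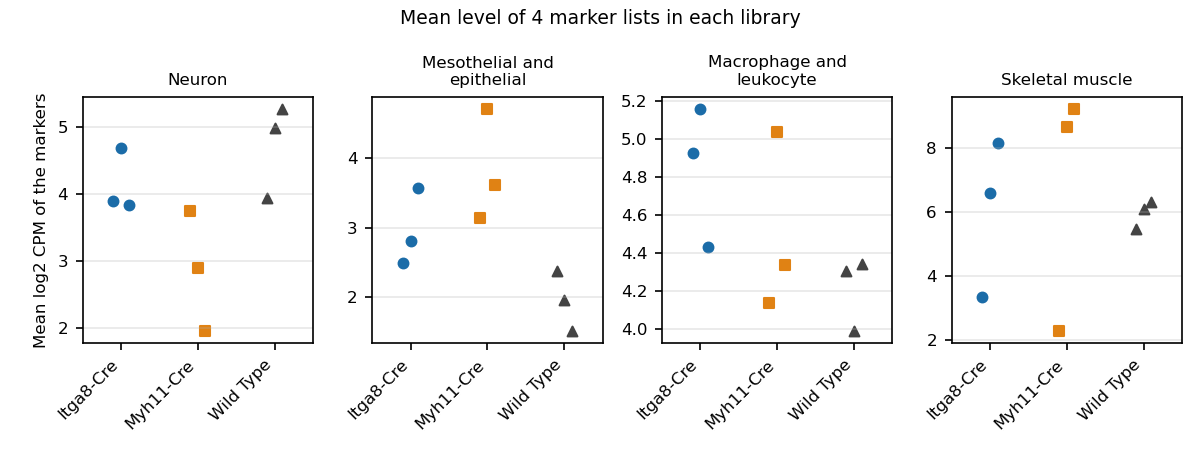
Mean log2 CPM of the tested members of 4 marker lists in each library, with circles for Itga8-Cre, squares for Myh11-Cre and triangles for Wild Type. Mesothelial and epithelial markers separate the 6 Cre libraries (2.49 to 4.71) from the 3 Wild Type libraries (1.51 to 2.37), and the other 3 lists overlap.

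These marker levels moved with the groups, so the genes of smallest p were refitted with a marker score as covariate, a step added with the data in view. With the neuron score, the log2 fold change of Irs2 was -1.40, that of Impdh1 -1.14, that of Spry4 -1.41 and that of Map6 -0.54. With the mesothelial and epithelial score Irs2 was at -1.34, Impdh1 at -1.02 and Map6 at -0.44, the Spry4 log2 fold change was -1.33, and Krt19 was at 0.65 against 2.31 without it. EdgeR called 0 genes in either fit, with smallest adjusted p of 0.258 and 0.985. The mesothelial and epithelial score separates the groups by itself, so in that fit the score and the genotype compete for the same difference.

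Metabolic lists had smaller medians. Nuclear oxidative phosphorylation genes were higher in 30 of 30, by a median of 0.23 and at most 0.40. At an unadjusted p under 0.05 there were 0, against 5.01% of all genes. The 9 mitochondrially encoded genes had a median of -0.04 (-0.14 without Myh11-Cre 1 and 0.06 without Wild Type 3). Fatty acid and cholesterol synthesis genes had medians of 0.35 and 0.29. Replicate 1 of each Cre line was low in skeletal muscle transcripts and had the highest brown fat sums, 10053 and 9497 CPM against 3381 to 7325 CPM in the other libraries. Without these 2 libraries, again left out with the data in view, the medians were 0.05 for oxidative phosphorylation, -0.05 for fatty acid and -0.07 for cholesterol synthesis. With the brown fat score as covariate they were 0.10, 0.10 and 0.13. Among brown fat markers, with a median of 0.05 (-0.07 without Itga8-Cre 1), Elovl3, a fatty acid elongase, was at 17.2 to 297 CPM (median 132) against 42.5, 32.1 and 38 CPM (1.97, SE 0.72), with Itga8-Cre 2 below the Wild Type libraries. Fabp3, a fatty acid binding protein of muscle and brown fat, was at 130 to 298 CPM against 67.8, 128 and 128 CPM (0.80, SE 0.29).

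The DESeq2 calls included further genes that were named after their values were seen. Of its 60 lower genes 54 were separate between the groups, and of its 25 higher genes 20, against 2.43% and 1.93% of all genes. The calls were made on the same libraries, so this separation follows largely from the choice of genes. Among the lower ones, Gm42614 and Gm42615, gene models of the annotation class TEC, lie within Ppargc1a on the same strand of chromosome 5. They were at 0.459 ± 0.169 and 0.499 ± 0.179 CPM in Cre (SD, n = 6) and at 1.44 ± 0.176 and 1.9 ± 0.558 CPM in Wild Type (SD, n = 3), with log2 fold changes of -1.65 and -1.93. Ppargc1a, the coactivator of mitochondrial biogenesis, was itself at 36.8 to 56.9 CPM against 85.9, 44.6 and 42.6 CPM (-0.39, SE 0.24), and reads of the overlapping models cannot be assigned with certainty. Map1b and Kif3a, a microtubule-associated protein and a kinesin motor subunit abundant in neurons, had -1.02 (SE 0.21) and -0.59 (SE 0.12). Ntrk3, the receptor of neurotrophin 3, had -0.77 (SE 0.16). Among the higher calls, the epithelial protease Tmprss2 was at 2.85 ± 2.14 against 0.225 ± 0.0193 CPM (3.64, SE 0.90). The neuron and mesothelial marker levels above moved the same way as these genes, and their part was not tested.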

How the data were processed

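The authors deposited 1 table of read counts per gene for 9 libraries of polyadenylated, stranded RNA from whole aortae, each from 1 mouse by its label. The submitters' processing notes name GRCm38.p6 and, with no roles, STAR 2.7.0f, Salmon 0.13.1, featureCounts, Subread 1.6.4, DESeq2 and fastp 0.20.0. Neither the annotation release nor the use of strand by the counter is given in the sources used here, which leaves overlapping genes uncertain. Of 55453 genes, 19412 passed edgeR's filterByExpr by genotype. They were tested with edgeR 4.0.16 in R 4.3.3 (TMM factors, robust quasi-likelihood F test, 6 Cre against 3 Wild Type libraries), with Benjamini-Hochberg adjustment over all of them and a threshold of 0.05. DESeq2 1.42.0 and limma 3.58.1 voom were alternatives, and exact permutation tests used scipy 1.17.1. CPM are counts relative to the TMM-scaled library total, and SD is over libraries. Symbols were placed on GENCODE M21 (19245 matched 1 gene each), and promoters came from a RefSeq table of GRCm38.p6.

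The members and the 44 gene lists were chosen with earlier results of these data known. The genes named were the 10 of smallest p in each direction with a mean of at least 1 CPM, without gene models that lack a name or antigen receptor segments, up to 3 of smallest p in each list, and Itga8, Myh11, Irs2, Impdh1, Spry4 and Irs1. Genes most like Irs2 by correlation were also chosen but are not described, since the groups form separate clusters in it. Alternatives changed the scaling, the filter, the tool, a replicate block, marker scores as covariates and the libraries left out.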

Additional observations from a re-analysis of the deposited data

Results flagged for a closer look

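The 94 genes checked were the named ones with an unadjusted edgeR p under 0.05 in the main fit, or fixed by name. Of these, 3 had a library far from the others of the Cre group, by a gap above the Dixon critical value for 6 libraries. Chance gives such a gap in about 1 in 20 groups. Egln3, a prolyl hydroxylase of the hypoxia response, was at 8.69 CPM in Itga8-Cre 2, and the nearest Cre library was at 14.4 CPM. Rgs4, a regulator of G protein signalling, was at 31.6 CPM in the same library, with the nearest at 22.3 CPM. Ighm, the heavy chain of immunoglobulin M, was at 1159 CPM in Myh11-Cre 1, with the nearest at 330 CPM.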

How the results depend on the processing

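The count of 0 genes called by edgeR changed under few settings. It was 2 with upper-quartile factors (Impdh1 and Irs2, smallest adjusted p 0.0442), 2 with the skeletal muscle score as covariate (0.0326), 3 with no filter on low counts (Impdh1, Irs2 and Spry4, 0.0154) and 85 with DESeq2. Leaving out 1 library gave 0 to 1 genes, the 1 being Irs2 without Myh11-Cre 3 (adjusted p = 0.0472 by edgeR), with smallest adjusted p from 0.0472 to 0.317. Among list genes the counts were 2, 2, 3 and 13 under the same 4 settings, and 0 to 1 without 1 library. All other settings gave 0 genes, with smallest adjusted p of 0.0648 with a minimum of 1 CPM, 0.129 with voom and 0.836 when Itga8-Cre 3 and both Myh11-Cre 2 and 3 were left out. The 846 genes without overlap became 970 to 2802 without 1 library, as fewer libraries separate more often: 1283 without Itga8-Cre 1, 2509 without Itga8-Cre 2, and 2802, 1443 and 1556 without Wild Type 1, 2 and 3. Between the Cre lines DESeq2 called 19 genes and the other settings 0. The 94 genes checked were those of the 144 named that had an unadjusted edgeR p under 0.05 or were fixed by name. Over these 94 genes and 2254 values under alternatives, 2224 kept direction and side of the threshold, 30 passed it, and 0 changed sign. Genes chosen by p in the same libraries can seldom change sign in refits, so that count is no support. With the replicate number as a block edgeR called 0 genes for the joined group (smallest adjusted p 0.192). For each line alone against Wild Type, the smallest edgeR adjusted p with that block was 0.0277, under the threshold. None of the named genes passed there. The labels do not tie the numbers across groups, and 6 of 9 same-numbered pairs deviated together (correlation over 0.1) against 2 of 18 others, with 4 of 9 libraries closest to their own number. The neuron and mesothelial covariates and the settings without several libraries were added after the data were seen. Depth limits genes near 1 CPM, and 3 Wild Type mice limit the rest.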
